A study of Sparus aurata with 9 samples.

Results

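The 102 sequences described here were those whose RNA level in the liver of gilthead sea bream (Sparus aurata) stood at least 2-fold above the controls both 7 and 14 days after a cortisol implant. They made up 1.02% of the 9955 sequences with a measured probe. A sequence is the contig or clone read from which a probe of the array was designed. Its level was the log2 of the processed Cy3 signal minus the 75th percentile of the same array, averaged over those of its probes that 3 or more of the 9 arrays measured well above background, so a value of 0 is the level of that percentile and a difference of 1 is a doubling. A sequence was taken where the day 7 mean and the day 14 mean each lay 1 or more above the control mean and where all 6 cortisol arrays lay above all 3 control arrays. The differences from control therefore chose the sequences and are given as a description, without a test. With 3 controls shared by both times, the agreement of the 2 differences was likewise fixed in part by the choice.

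Cortisol is the main glucocorticoid of bony fish. It is released by the interrenal tissue under stress, binds the glucocorticoid receptor inside the cell, and the receptor then acts on the transcription of its target genes. In the liver of fish the hormone is known for raising gluconeogenesis and the breakdown of amino acids, which keep glucose available during a lasting stress. The names of the array sequences are contig and clone numbers: of the names of all 15156 sequences on the array, 0 were found among the 32006 genes of the RefSeq table of assembly fSpaAur1.1. No gene is therefore named, none of these pathways could be looked up, and the sequences are referred to by their rank from 1 to 102, ordered by the smaller of their 2 differences from control. Only 2 are given by their identifier.

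The study compared adult fish of 108 g mean weight held at 15 °C. Cortisol fish received an intraperitoneal implant of coconut oil with 200 µg of cortisol (hydrocortisone hemisuccinate) per g body weight, in a volume of 5 µl per g, and their livers were taken after 7 or after 14 days. The control fish carry no treatment in one label, whereas the protocol describes controls with an implant of coconut oil alone and, besides, an untreated group sampled on day 0. The labels give no sampling day for the control arrays and do not say which of these they hold, so neither time had a control known to be matched to it. All fish went unfed during the experiment, so that time with the implant and time without food cannot be told apart between day 7 and day 14. With the treatment and day of the control arrays not known, the differences from control have a like limit. In them, cortisol cannot be told apart from the oil implant or from time without food. Each of the 3 groups had 3 arrays, and each array held the RNA of a pool of 2 fish, so that the spread between arrays is one between pools. Pools of 2 make 18 fish for the 9 arrays, whereas the design text states 36, and the sources used here do not settle this. In whole-liver RNA, a change in the cells present and a change in RNA per cell cannot be told apart, and no cell type markers could be read without gene names.

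The arrays did not measure dim sequences equally well. The share of the 43803 non-control spots that stood well above background ran from 34.7% on day 14 pool 1 to 65.2% on day 14 pool 2. The background level of an array, taken as the median over the 6966 probes that were well above background on no array, lay between -6.10 and -4.61 on the other 8 arrays and at -3.24 on day 14 pool 1. The arrays lay on 3 slides. Control pools 1 and 3 shared slide 1 with the cortisol pools numbered 3, the cortisol pools numbered 1 were on slide 2 without a control, and all pools numbered 2 were on slide 3. Slide 1 was scanned on scan day 1, and slides 2 and 3 on scan day 2. The ratio of spike-in to negative-control signal ran from 87.0 to 130 on slide 1 and from 9.77 to 26.8 on slides 2 and 3.

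Over the 102 sequences, the median level was -2.35 in control pool 1, -2.19 in control pool 2 and -1.86 in control pool 3. It was -0.89, -0.66 and -0.62 in day 7 pools 1, 2 and 3. In day 14 pools 1, 2 and 3 it was -0.62, -0.56 and -0.48. The median over all measured sequences stayed between -1.09 and -0.94 on the 9 arrays. The median of the chosen sequences thus lay below it in every control pool and above it in every cortisol pool. That each cortisol pool stood above each control pool was fixed by the choice. Single sequences covered a wide range, from -5.97 to 5.77 on the control arrays and from -4.55 to 6.85 on the cortisol arrays. In control level, 68 of the 102 lay below the median of all measured sequences and 42 lay among the dimmest 20%. The rule read the control levels, so these counts may in part come from the choice.

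**Figure D1:**
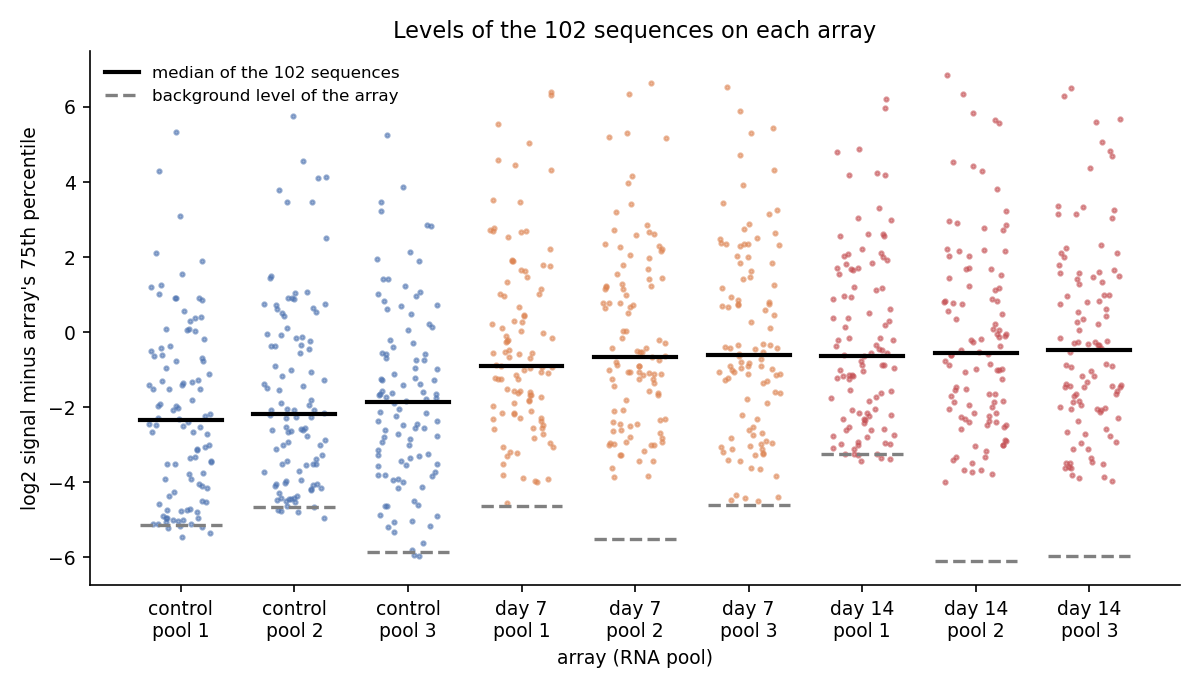
Level of each of the 102 sequences (points, log2 signal minus the array's 75th percentile) on each of the 9 arrays, with the median over the sequences (solid bar) and the background level of the array (dashed bar). The medians of the 3 control arrays lie between -2.35 and -1.86. Those of the 6 cortisol arrays lie between -0.89 and -0.48, an order that the choice of the sequences fixed. The background level of day 14 pool 1, at -3.24, is the highest of the 9.

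The median difference from control was 1.43 on the log2 scale at day 7 (range 1.02 to 3.39) and 1.48 at day 14 (range 1.03 to 3.37), which correspond to 2.70-fold and 2.80-fold. Over all measured sequences these medians were 0.05 and 0.02. With normexp background correction on the median signals, the medians of the 102 were 0.84 at day 7 and 0.86 at day 14. The medians over all measured sequences were 0.12 and 0.17 with that correction. Only 22 sequences then met the rule, 21 of the 102 among them. Whether the dimmer sequences account for this was not tested. A difference of 2 or more, which is 4-fold, was reached by 21 sequences at day 7, by 23 at day 14 and by 13 at both times. Most members stood close to the threshold: the median of the smaller difference was 1.29, and only 30 sequences had 1.5 or more at both times. The 3 sequences just inside the threshold had smaller differences of 1.02, 1.03 and 1.04, and the 3 just outside it, whose cortisol and control arrays also did not overlap, had 0.996, 0.991 and 0.988.

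As the background of the choice, 2.79% of measured sequences (278) met the rule at day 7 alone or with day 14, and 3.83% (381) met it at day 14. Both differences were 1 or more in 240 sequences, of which 138 were left out because a cortisol array lay at or below a control array. One of those had a smaller difference of 4.37, larger than that of any of the 102. Conversely, 478 sequences showed no overlap at both times, and 376 of them had a difference under 1. The mirror rule, with both times 1 or more below control and no overlap, was met by 130 sequences.

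**Figure D2:**
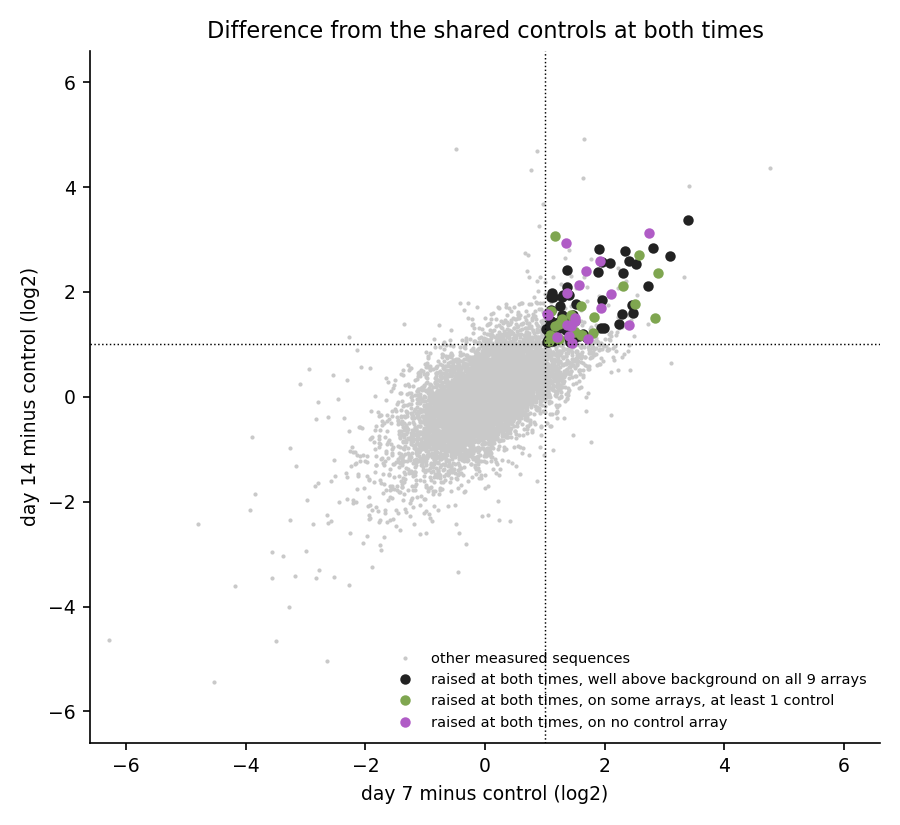
Difference from control at day 7 (x) and day 14 (y) on the log2 scale for all measured sequences (grey) and the 102 raised at both times, coloured by the arrays on which they were well above background; dotted lines mark the threshold of 1. The same 3 control arrays enter both axes, which makes the cloud rise along the diagonal by itself; the 102 reach 3.39 on the x axis and 3.37 on the y axis.

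The largest smaller difference among sequences well above background on every array and with several measured probes belonged to Contig2453. Its level was 1.54, 4.11 and 2.82 in control pools 1, 2 and 3. It was 6.40, 6.35 and 5.90 in day 7 pools 1, 2 and 3 and 5.96, 6.35 and 6.29 in day 14 pools 1, 2 and 3. The 6 cortisol pools thus lay close together, between 5.90 and 6.40, while the 3 controls were spread over 2.57 units, and the lowest cortisol pool was 1.78 above the highest control. The group means were 2.83 ± 1.29 in controls, 6.22 ± 0.28 at day 7 and 6.20 ± 0.21 at day 14 (SD, n = 3 pools). These are differences of 3.39 and 3.37, or 10.5-fold and 10.4-fold. Its 3 probes differed from control by 3.32 to 3.48 at day 7 and by 3.32 to 3.46 at day 14, so the probes were closer to each other than the control pools were.

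The other sequence chosen by the same rule was Seabream_2006-01-03-CL1961Contig1, ranked 6. Its level was -1.98, -0.90 and -1.63 in control pools 1, 2 and 3. It was 1.63, 1.20 and 0.26 in day 7 pools 1, 2 and 3 and 0.89, 1.19 and 0.99 in day 14 pools 1, 2 and 3. Every cortisol pool lay above every control pool, the nearest by 1.16. The means of -1.50 ± 0.55, 1.03 ± 0.70 and 1.02 ± 0.15 (SD, n = 3 pools) gave differences of 2.53 at day 7 and 2.52 at day 14. The 3 probes of this sequence sat at different levels but moved alike, by 2.30 to 2.97 at day 7 and by 2.34 to 2.85 at day 14.

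**Figure D3:**
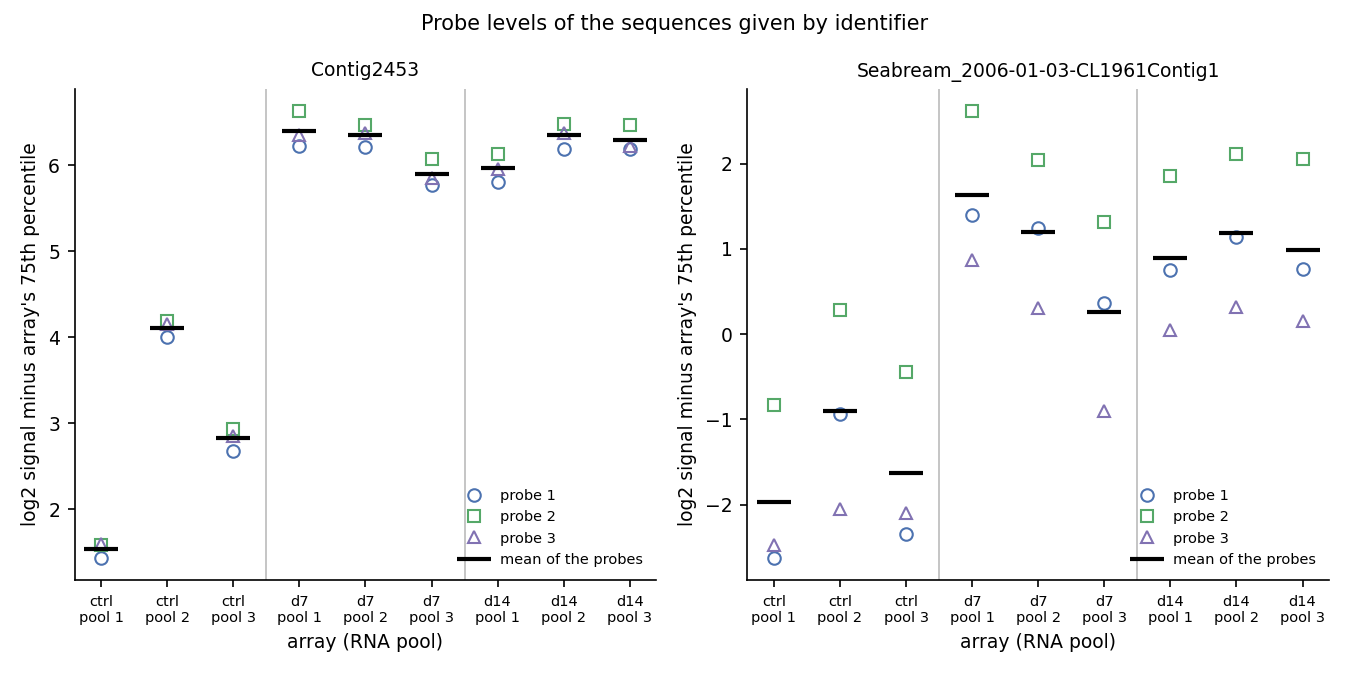
Levels (log2 signal minus the array's 75th percentile) of the 3 probes of Contig2453 and of Seabream_2006-01-03-CL1961Contig1 on the 9 arrays, with the mean of the probes as a bar. In both sequences each of the 3 probes is higher in each of the 6 cortisol pools than the same probe in any control pool; the control pools of Contig2453 range from 1.54 to 4.11.

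The control pools of single sequences varied widely. In 5 sequences, ranked 1, 5, 7, 9 and 56, the controls were spread over 2 units or more. Those ranked 1, 7 and 9 had control pool 1 lowest and control pool 2 highest, but this order was not general. The sequence ranked 5 read -4.37, -4.36 and -2.15 in control pools 1, 2 and 3, and that ranked 56 read -0.64, -2.92 and -1.42. The sequence ranked 7 read 0.86, 4.13 and 3.46 in control pools 1, 2 and 3. It read 5.04, 5.19 and 5.43 in the day 7 pools and 4.80, 5.83 and 5.60 in the day 14 pools. The sequence ranked 9 read 0.57, 3.78 and 2.13 in the control pools. It read 4.44, 5.16 and 3.91 at day 7 and 4.19, 5.58 and 5.07 at day 14. In both, control pool 2 came within 0.67 of the lowest cortisol pool, while control pool 1 lay more than 3 units below it. Whether these sequences come from the same or from related transcripts was not tested, because the files used here hold no probe sequence.

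In others the controls were tight, and in 27 of the 102 they lay within 0.5 of each other. Just outside these, the sequence ranked 10 read -0.51, -0.05 and -0.58 in the control pools. It read 1.77, 1.98 and 2.01 at day 7 and 1.71, 2.02 and 2.23 at day 14, so the 2 sets of pools were separated by 1.75. The sequence with the largest separation of all, 1.89, was ranked 12. It read -1.34, -1.06 and -1.22 in controls, 1.47, 1.23 and 1.84 at day 7 and 0.97, 0.89 and 0.83 at day 14. The brightest sequence, ranked 96, rose from 5.33, 5.77 and 5.25 in controls to 6.31, 6.64 and 6.53 at day 7 and stood at 6.22, 6.85 and 6.52 at day 14, with 0 saturated spots on any array. Over the 102, the median distance between the lowest cortisol pool and the highest control pool was 0.52, and the shortest was 0.006.

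Control pool 2 was the highest control in 60 of the 102 sequences, control pool 3 in 36 and control pool 1 in 6. Control pool 1 was the lowest in 63. In the cortisol groups the highest pool was less one-sided: day 7 pools 1, 2 and 3 were highest in 25, 38 and 39 sequences, and day 14 pools 1, 2 and 3 in 40, 38 and 24. In the same order, they were lowest in 49, 17 and 36 sequences at day 7 and in 46, 24 and 32 at day 14. These counts were not set against those of all measured sequences. The median SD between pools was 0.36 in controls, 0.39 at day 7 and 0.33 at day 14, against 0.35, 0.39 and 0.34 over all measured sequences. Leaving out control pool 2 let 362 sequences meet the rule, 98 of the 102 among them; leaving out control pool 3 gave 162 and leaving out day 7 pool 1 gave 156, with 98 and 97 shared. Leaving out control pool 1 gave 97, with 80 shared. Each such count rests on fewer arrays and on another group mean.

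Of the 102, 60 were well above background on all 9 arrays, where 1 measured probe was enough for a sequence to count as detected on an array. Their controls were at a median of -0.60, and their median differences were 1.37 at day 7 and 1.48 at day 14, close to those of the whole set. Of the 13 sequences at 4-fold or more at both times, 9 belonged to these 60. Another 23 were detected on at least 1 control array but not everywhere. With levels averaged over only the probes well above background on all 9 arrays, 53 of the 102 still met the rule.

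The remaining 19 sequences were well above background on no control array, and they passed the filter on dim probes only through cortisol arrays, so a higher cortisol level was a condition of their being measured. Of the 19, 14 were well above background on only 3 arrays, 1 at day 7 and 2 at day 14. Their rise at day 7 thus rests on 1 detected pool. The sequence ranked 16, for example, read -1.24, -3.83 and -4.41 in day 7 pools 1, 2 and 3. The control means of the 19 lay between -5.27 and -3.90, with a median of -4.77. The background level of the control arrays had a mean of -5.21. The measured differences of the 19 ran from 1.04 to 2.74 at day 7 and from 1.03 to 3.11 at day 14. No lower bound is given for them, because in 18 of the 19 the measured control values already lay above the lowest signal counted as well above background on those arrays, so that replacing them by that signal changed nothing. A true ratio may be smaller or larger. On day 14 pool 1 none of the 19 was well above background, and 12 lay within 0.5 of that array's background level of -3.24. The sequence ranked 3 was of this kind. It read -5.12, -4.65 and -5.93 in controls, within 0.1 of the background level of each, -2.48, -2.31 and -2.70 at day 7, and -2.97, -1.55 and -1.84 at day 14.

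Day 14 pool 1 bore on more than these 19. Of the 102, 37 were not well above background on that array, as against 0 on day 14 pools 2 and 3. In 29 of the 37 all 3 control values lay below its background level, so that a signal at background would have met the demand of no overlap there. On day 7 pools 1, 2 and 3, 13, 4 and 23 of the 102 were not well above background. On control pools 1, 2 and 3 it was 37, 35 and 19. The background levels of day 7 pools 1 and 3, at -4.63 and -4.61, lay above those of control pools 1, 2 and 3, at -5.14, -4.65 and -5.85. How often background met the demand of no overlap at day 7 was not counted. Taken from day 14 pools 2 and 3 alone, the median difference from control over the 102 was 1.45, and 92 of them were 1 or more above control. The rule used both of these pools, so these values are a description and not a check. For the 19 without control detection the difference from these 2 pools ran from 0.50 to 3.54 with a median of 1.41. Without day 14 pool 1 the rule was met by 104 sequences, 92 of the 102 among them.

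More than 1 measured probe belonged to 44 of the 102 (43.1%, against 44.6% of all measured sequences), with 127 measured probes between them; the other 58 rested on 1 probe. These probes were averaged into the level that the rule read, so their direction was largely set by the choice, and their values describe the spread within a sequence. In 42 of the 44 each measured probe was above control at both times, in 23 each was at least 1 above, and in 17 each would have met the rule by itself. The differences of the probes of a sequence lay a median of 0.47 apart at day 7 and 0.48 at day 14, and at most 2.79 and 3.39 apart. The 2 exceptions held probes at very different levels. In the sequence ranked 48, 2 dim probes differed from control by 2.93 and 2.90 at day 7 and by 2.12 and 2.19 at day 14, while a bright one differed by 0.13 and -0.39. In the sequence ranked 83, the dimmest probe differed by 2.53 at day 7 and 3.57 at day 14, a probe of middle level by -0.16 and 0.58, and the brightest by 0.94 and 0.18. In both sequences the dim probes, which were well above background on 3 to 5 arrays, gave most of the mean difference.

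The rule left out 12 further probes of 9 of the sequences, because these were well above background on fewer than 3 arrays. They were not used in the choice, though they come from the same arrays and are near background. Of these, 11 were above control at both times and 7 by at least 1, with medians of 1.19 at day 7 and 1.29 at day 14. On day 14 pool 1 the 12 probes read from -3.40 to -2.30, against that array's background level of -3.24. A signal at background would also have read above control there. Some belong to the sequences ranked 16, 31 and 41, which were well above background on no control array. The values of the 12 are thus a description and not a check. Over all 10479 probes left out in this way, 70.6% were above control at both times and 1.44% by at least 1, with medians of 0.30 and 0.14, so being above control was common among dim probes.

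Within slides, where arrays were scanned together, each of the 102 was above control in all 4 comparisons that hold both groups. The arrays are those the rule used, so both sign and size were subject to the choice, and the values describe how the difference was spread over the slides. On slide 1 the median difference was 1.58 at day 7 (range 0.31 to 3.71) and 1.53 at day 14 (range 0.53 to 4.20), with day 7 pool 3 and day 14 pool 3 each set against the mean of control pools 1 and 3. On slide 3 it was 1.39 at day 7 (range 0.27 to 3.87) and 1.49 at day 14 (range 0.07 to 4.17), with pool 2 of each group. A difference of 1 or more was found in 86 and 92 sequences on slide 1 and in 80 and 70 on slide 3. Slide 2 held no control.

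**Figure D4:**
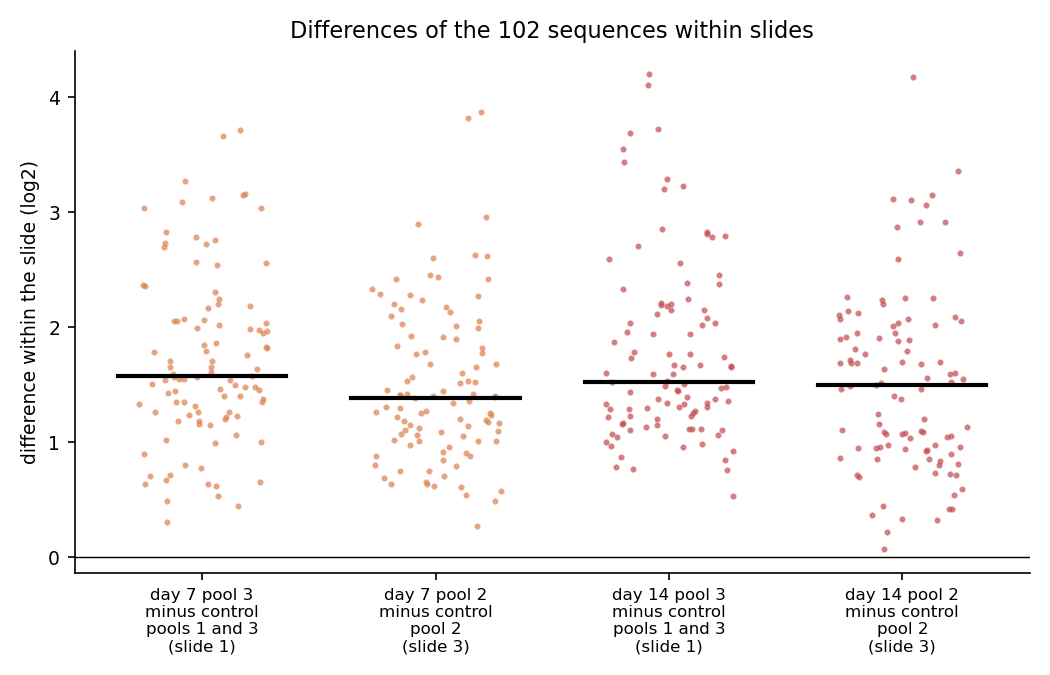
Difference from control of each of the 102 sequences within slide 1 and within slide 3 at day 7 and day 14 (points, log2), with medians as bars. All points lie above 0, which the choice of the sequences fixed; the medians run from 1.39 to 1.58.

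The difference between the cortisol times was not itself part of the rule, but the rule read the values of both times. It was tested over all 9955 measured sequences with limma, with p-values adjusted by Benjamini-Hochberg. At an adjusted p under 0.05, 0 sequences (0%) were called, so 0 of the 102 were. When arrays were weighted by their estimated quality, limma called 993 (9.97%) and 10 of the 102 (9.8%). At an unadjusted limma p under 0.05 there were 1144 (11.5%), against 13 of the 102 (12.7%). By direction, 7 of the 102 were higher at day 14, with a background of 6.41%, and 6 were lower, with a background of 5.08%. The pools of both times did not overlap in 10 of the 102 with day 14 above day 7 (background 9.45%) and in 7 with day 14 below (background 9.17%). These shares were near those of all sequences. The rule asked for a rise at both times, which limits how far the times of a chosen sequence can differ. No conclusion on the change from day 7 to day 14 is therefore drawn from them.

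Over the 102, the median of day 14 minus day 7 was 0.01 on the log2 scale, with 53 sequences higher at day 14 and 49 lower, and the median over all sequences was -0.04. In 68 of them (66.7%, against 66.1% of all) the 2 times lay within 0.5 of each other. The precision was limited: the median SE of a difference was 0.35, and the 95% interval lay wholly within 1 of 0 for 40 sequences only, while that of the other 62 reached a change of 2-fold. For Contig2453 the difference was -0.02 ± 0.54 (SE, limma adjusted p of 0.994) and for Seabream_2006-01-03-CL1961Contig1 it was -0.01 ± 0.39 (SE, limma adjusted p of 0.997). Scaling each array on its median moved the median difference of all sequences to 0.07 and that of the 102 to 0.12.

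**Figure D5:**
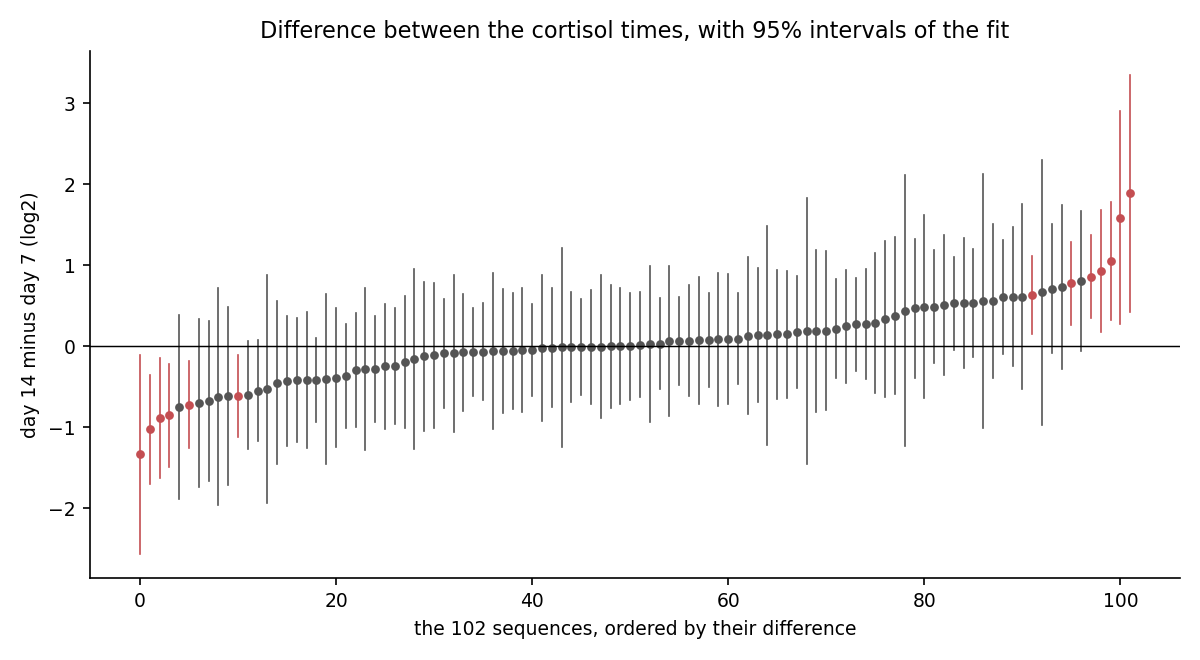
Difference between day 14 and day 7 (log2, points) for each of the 102 sequences in order of size, with 95% intervals of the limma fit; red marks an unadjusted p under 0.05. The differences run from -1.34 to 1.89, and the 13 in red have adjusted p-values from 0.299 to 0.410.

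The sequences that differed most between the times did not pass the test, and they are given as values, chosen after these were seen. The sequence ranked 66 read -4.75, -3.28 and -4.15 in controls, -2.56, -3.01 and -3.10 in day 7 pools 1, 2 and 3, and -2.61, -0.13 and -0.25 in day 14 pools 1, 2 and 3. Its difference of 1.89 ± 0.65 (SE, limma adjusted p of 0.353) came from day 14 pools 2 and 3, while day 14 pool 1 stood among the day 7 pools. The sequence ranked 45 had the same shape, with -4.55, -2.63 and -4.34 at day 7 and -3.25, -1.64 and -1.86 at day 14, a difference of 1.59 ± 0.58 (SE, limma adjusted p of 0.388). In both, day 14 pool 1 lay within 0.7 of its background level of -3.24. The sequence ranked 45 was also near background in day 7 pools 1 and 3, where the background levels were -4.63 and -4.61. Its single probe was well above background on only 3 arrays. The sequence ranked 42, in contrast, was higher in all 3 day 14 pools, at 1.70, 2.22 and 1.79 against 0.43, 1.54 and 0.59 at day 7 and -0.78, -0.38 and -0.40 in controls. Its difference was 1.05 ± 0.32 (SE, limma adjusted p of 0.317).

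The smallest unadjusted p among the 102 belonged to the sequence ranked 80. It read -2.22, -2.64 and -2.55 in controls, -1.57, -1.44 and -1.05 at day 7 and -0.44, -0.61 and -0.43 at day 14, so that the 3 groups did not overlap and each stood above the one before. Its difference of 0.86 ± 0.23 between the times had a limma adjusted p of 0.299. In the other direction, the sequence ranked 30 fell back from -0.93, -0.81 and 0.76 at day 7 to -0.95, -2.0 and -2.03 at day 14, with controls at -3.44, -3.70 and -2.37. Its difference was -1.34 ± 0.54 (SE, limma adjusted p of 0.410), and its highest day 14 pool, at -0.95, lay just below the lowest day 7 pool, at -0.93. The sequence ranked 41, well above background on no control array, was lower in all 3 day 14 pools, at -2.61, -3.00 and -2.96 against -2.27, -1.62 and -1.59 at day 7, a difference of -1.03 ± 0.30 (SE, limma adjusted p of 0.305).

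Within slides, where day 7 and day 14 pools of the same number lay together, the median of day 14 minus day 7 over the 102 was 0.008 on slide 1, 0.03 on slide 2 and 0.03 on slide 3, against -0.07, -0.03 and -0.008 over all sequences. Day 14 was the higher on 3 of 3 slides in 16 of the 102 (15.7%, background 17.4%) and the lower on 3 of 3 in 15 (14.7%, background 22%). With slide as a block in the fit, 0 sequences were called again, and 1518 had an unadjusted limma p under 0.05, 16 of them among the 102. With scan day as a block, 0 were called, and 1386 had an unadjusted limma p under 0.05, 15 of them among the 102.

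The names of the sequences gave another property that the choice did not use. Single clone reads with names beginning in cDN made up 59 of the 102 (57.8%) and 49.7% of all measured sequences. Contigs named Contig with a number made up 19 (18.6%, against 24.5%), and cluster contigs of the Seabream series 24 (23.5%, against 22.4%). None came from the 341 measured sequences with other names. These shares are given as a description.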

How the data were processed

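Liver RNA of 9 pools was measured on one-colour arrays, 1 array a pool, with group and pool number read from its title. Per the file headers, Agilent Feature Extraction 10.7.3.1 gave the deposited spot intensity, background-subtracted and detrended within an array and not scaled between arrays. The authors' deposited value table is the log2 of the background-subtracted signal, except for day 7 pool 3, whose column is on another deposited scale, a logarithm to base 20; both scales were found by comparison with the scanner files, and the table served as an alternative only. Flags for spots well above background are another deposited value, per the file headers.

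From these, log2 of the processed intensity minus the 75th percentile of the array over non-control spots was computed. Spots marked as outliers were left out, spots were averaged per probe, and a probe counted as well above background where 50% or more of its spots carried that flag. The 18278 probes that passed on at least 3 arrays were averaged per sequence, which gave 9955 sequences; 5 of these lacked a value on 1 or more arrays, and 0 of the 102. limma 3.58.1 (lmFit, then eBayes; R 4.3.3) fitted all 3 groups at once, leaving 6 residual degrees of freedom, and an adjusted p under 0.05 was called. Fits were tested on simulated data for the recovery of planted differences, which is no check of the calls made on these arrays. The rule for the sequences given by identifier asked for detection on all 9 arrays, 2 or more measured probes and the largest smaller difference. The members, lists and rules were chosen with earlier results of these data known; the gene lists and cell type markers could not be used without gene names. Python 3.11.15 and matplotlib 3.10.9 were used for tables and figures. The number of arrays limits the precision.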

Additional observations from a re-analysis of the deposited data

How the results depend on the processing

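The number of sequences that met the rule was 102, and between 86 and 116 with 8 of 10 other settings of scaling, filter, outlier spots, averaging and source of the values. The sequences were not always the same. Of the 102, 77 met the rule with quantile normalization and 83 with the authors' deposited table. With the brightest probe 87 did, and with the median over probes 94. In the rest of these 8 settings it was 95 to 102. The number of sequences that met the rule was 22 with normexp background correction on the median signals (offset 50, with 21 of the 102 among them). It was 56 with only probes well above background on all arrays, 53 of the 102 among them. That filter left a value for 60 of the 102, so some members missed the rule on their remaining probes. With normexp the median differences from control of the 102 were 0.84 at day 7 and 0.86 at day 14. Over all sequences they were 0.12 and 0.17 with normexp. Its offset shrinks differences of dim signals, but whether that accounts for the change was not tested. Leaving out single arrays gave 97 sequences (without control pool 1) to 362 (without control pool 2) and medians of 1.32 to 1.56 at day 7 and 1.39 to 1.57 at day 14. Between the times, array weights called 993 sequences (9.97%) and 10 of the 102 (9.8%), the cause of which was not tested. A fit per probe called probes of 1 sequence and of 0 of the 102, and leaving out single arrays gave 0 to 1 sequences (1 without day 7 pool 3, 1 without day 14 pool 1) and 0 of the 102. With the pool number as a replicate block 0 sequences were called and 1186 had an unadjusted limma p under 0.05, 16 of them among the 102. Deviations of same-numbered day 7 and day 14 pools correlated at 0.09 to 0.30 across sequences, and 6 of 6 cortisol arrays matched their own number best, but these pairs also shared a slide, and the labels do not say what a number marks. For day 7 pool 1 the match was close, at 0.094 with day 14 pool 1 and 0.085 with day 14 pool 2. Over all 9 same-number pairs, controls included, the correlations ran from -0.29 to 0.42. Control pool 2 and day 14 pool 1, which shared neither number nor slide, correlated at 0.40. The differences between the times of the sequences given by identifier were near 0 and changed sign. Contig2453 gave 0.0936 with scaling on the median, 0.00907 with the percentile over probes detected on all arrays, 0.0839 with quantile normalization and -0.18 to 0.10 leaving out single arrays. Seabream_2006-01-03-CL1961Contig1 gave 0.102 and 0.0177 with the first 2 of these, 0.0166 with its brightest probe, 0.0041 with the authors' deposited table and -0.39 to 0.29 leaving out single arrays. Their limma adjusted p ran from 0.931 to 0.99997 and from 0.698 to 0.99998. Depth of signal limits the 42 sequences not detected on all arrays.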
